A study of Mus musculus with 4 samples.

Results

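Leukotrienes and prostaglandins are lipid mediators cut from membrane arachidonic acid, and 10 genes of their synthesis, transport and breakdown were read in single cells of the mouse heart. The 10 were chosen by symbol, as the entries named Alox5, Alox5ap, Ltc4s, Lta4h, Ptgs1, Ptgs2, Ptges, Hpgds, Slco2b1 and Hpgd in the feature lists of both gene matrices, 10 of 32285 genes in all. They were picked because earlier readings of the same cells had shown several of them at different levels between the libraries, so their levels and ratios are given here as a description, with no test. Every one of the 10 was found in both matrices.

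The anti-CD40 group was 1 CITE-seq library (transcripts and antibody tags read from the same cells) of hearts, atria removed, pooled from 4 C57BL6J mice given an agonist antibody against CD40, a receptor of the tumour necrosis factor family that activates antigen-presenting cells. The isotype group was 1 library pooled from 4 C57BL6J mice given rat IgG. Mouse age, dose and time after injection are not stated in the labels used here. Each group is 1 library, so no replicate error exists, and the 95% intervals given are exact ones that cover counting alone. Effects of the antibody and other differences between the preparations cannot be told apart.

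In the leukotriene branch, 5-lipoxygenase (Alox5) works with its activating protein (Alox5ap) to make leukotriene A4, which Lta4h turns into leukotriene B4, a neutrophil attractant, and Ltc4s turns into leukotriene C4, the parent of the cysteinyl leukotrienes. In the prostaglandin branch, the cyclooxygenases Ptgs1 (largely constitutive) and Ptgs2 (inducible) make prostaglandin H2, which Ptges turns into prostaglandin E2 and Hpgds into prostaglandin D2. Hpgd, 15-hydroxyprostaglandin dehydrogenase, starts the breakdown of prostaglandins, and Slco2b1 is an organic anion transporter of the cell membrane. Macrophages, neutrophils and mast cells are the textbook sources of these mediators.

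After cells with under 200 genes or with 10% or more mitochondrial UMIs (unique molecular identifiers, 1 for each captured transcript) were left out, 4278 anti-CD40 cells (median 8284.5 UMIs) and 2558 isotype cells (median 5446) remained. A cell took a type when at least 50% of that type's markers, rounded up, had a UMI and less than that of every other type's. In the anti-CD40 library this gave 2176 phagocytes (macrophages and monocytes), 302 neutrophils, 11 B cells, 131 T cells, 110 natural killer (NK) cells, 68 endothelial cells, 48 fibroblasts and 8 conventional dendritic cells. In the isotype library it gave 691 phagocytes, 146 neutrophils, 409 B cells, 33 T cells, 117 NK cells, 41 endothelial cells, 30 fibroblasts and 28 conventional dendritic cells. Cells that met the markers of several types, 718 anti-CD40 and 584 isotype cells, were kept apart, as a doublet or free RNA could give such a cell. The libraries shared 13 barcodes, 6 of them among the kept cells. The titles and protocol name a sort on CD45 while the series description names DRAQ5, and endothelial cells and fibroblasts, which lack CD45, were present in both libraries.

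Within phagocytes 6 of the 10 genes, namely Ltc4s, Hpgd, Slco2b1, Alox5, Ptgs1 and Hpgds, were more than 2-fold lower in the anti-CD40 library, and 0 were more than 2-fold higher. Levels are CPM, the gene's UMIs per 1000000 UMIs of all cells of that type in that library. Of the 10 genes, 9 had the 30 UMIs over both libraries that a ratio required, and their median log2 ratio (of CPM plus a prior of 10) was -1.52, against -0.10 over all 11864 genes with as many UMIs. Of all those genes, 11.5% were more than 2-fold lower and 6.44% more than 2-fold higher. Since the 6 genes were picked with these ratios known, nothing is read from that contrast. Phagocytes of the libraries lay in largely separate Leiden clusters: the cluster with 544 of the 691 isotype phagocytes held 33 of the 2176 anti-CD40 ones, and the clusters with 809 and 778 anti-CD40 phagocytes held 8 and 15 isotype ones.

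Ltc4s (ENSMUSG00000020377) had 18.4 CPM (16.8 to 20.1) in anti-CD40 phagocytes, against 232 CPM (219 to 245) in isotype phagocytes. The anti-CD40 level was thus lower by 12.6-fold (11.3 to 14.0). A UMI of Ltc4s was found in 9.65% of anti-CD40 phagocytes and 34.6% of isotype phagocytes, and in 0.909% of anti-CD40 and 1.71% of isotype NK cells, lymphoid cells used here to gauge free RNA, at median depths of 7514 UMIs in the anti-CD40 and 4774 in the isotype NK cells (10513.5 in anti-CD40 and 7088 in isotype phagocytes). Ltc4s transcripts were found in a minority of phagocytes in each library at these depths. The highest cell held 21 UMIs in the anti-CD40 library and 42 in the isotype library. When each phagocyte was thinned to 1000 UMIs, with 20 anti-CD40 and 19 isotype cells too shallow to keep, the shares were 1.58% of anti-CD40 cells and 13.5% of isotype cells.

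Hpgd (ENSMUSG00000031613) had 48.1 CPM (45.5 to 50.8) in anti-CD40 phagocytes, against 485 CPM (467 to 503) in isotype phagocytes, 10.1-fold lower (9.43 to 10.8). It differed in how many cells carried it as well as in how much each held. A UMI was present in 26.9% of anti-CD40 phagocytes and 76.7% of isotype phagocytes, with a median of 2 UMIs in the anti-CD40 and 4 in the isotype cells that had any. After thinning, 5.01% of anti-CD40 cells and 36.9% of isotype cells still had a UMI. In NK cells, 0.909% of the anti-CD40 and 3.42% of the isotype cells had a UMI of Hpgd.

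Slco2b1 (ENSMUSG00000030737) had 13.7 CPM (12.4 to 15.2) in anti-CD40 phagocytes, against 125 CPM (116 to 135) in isotype phagocytes, 9.14-fold lower (8.04 to 10.4). Its transcript was found in 11.9% of anti-CD40 and 49.9% of isotype phagocytes, and after thinning in 1.58% of anti-CD40 and 12.6% of isotype phagocytes. In NK cells 1.82% of the anti-CD40 and 1.71% of the isotype cells had a UMI of it.

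**Figure D1:**
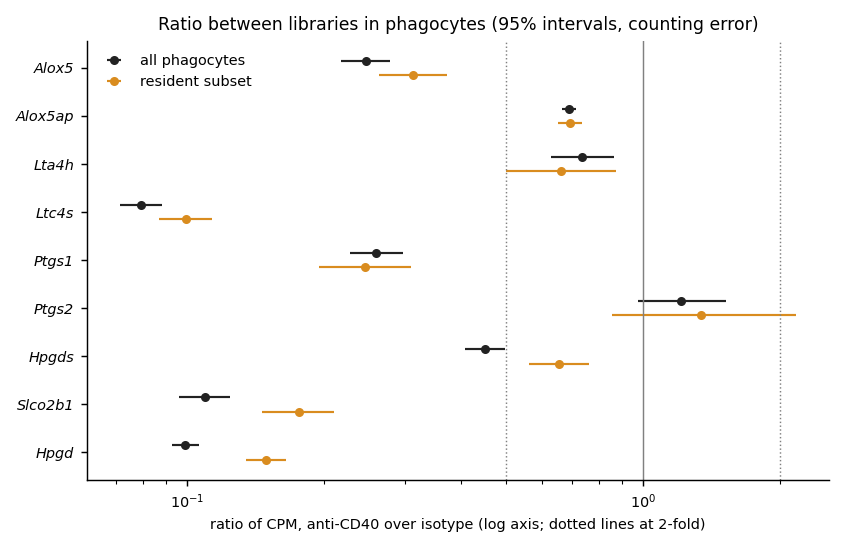
Ratio of CPM, anti-CD40 over isotype, for the 9 genes with 30 or more UMIs, in all phagocytes (black) and in the resident subset (orange), on a log axis with exact 95% intervals for counting error. Ltc4s, Slco2b1 and Hpgd lie near 0.1 in all phagocytes, Alox5 and Ptgs1 near 0.25, and Ptgs2 is the 1 gene whose interval includes a ratio of 1.

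Alox5 (ENSMUSG00000025701), the first enzyme of the leukotriene branch, had 20.7 CPM (19.0 to 22.5) in anti-CD40 phagocytes, against 83.9 CPM (76.5 to 91.9) in isotype phagocytes. This was 4.06-fold lower (3.58 to 4.60). Its partner Alox5ap (ENSMUSG00000060063) differed less, with 484 CPM (476 to 493) in anti-CD40 phagocytes and 704 CPM (682 to 726) in isotype phagocytes, 1.45-fold lower (1.40 to 1.51). Nearly the same share of phagocytes carried Alox5ap, 83.4% of anti-CD40 and 84.8% of isotype cells, although at 1000 UMIs a cell the shares were 30.6% of anti-CD40 and 43.0% of isotype cells. Lta4h (ENSMUSG00000015889), the leukotriene B4 branch, had 26.2 CPM (24.3 to 28.2) in anti-CD40 phagocytes and 35.6 CPM (30.9 to 40.9) in isotype phagocytes, 1.36-fold lower (1.16 to 1.60). The 4 leukotriene genes were thus spread from 1.36-fold to 12.6-fold lower within the same cells.

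Ptgs1 (ENSMUSG00000047250) had 19.0 CPM (17.4 to 20.7) in anti-CD40 phagocytes, against 72.9 CPM (66.0 to 80.3) in isotype phagocytes, 3.84-fold lower (3.36 to 4.39). Hpgds (ENSMUSG00000029919) had 46.5 CPM (44.0 to 49.2) in anti-CD40 phagocytes, against 103 CPM (94.96 to 112) in isotype phagocytes, 2.22-fold lower (2.01 to 2.45). It was no longer past 2-fold under TMM scaling, where its log2 ratio was -0.77. Calls past 2-fold used the CPM ratio without the prior of 10 CPM that the log2 ratios include. Hpgds was the called gene nearest to the 2-fold line, and Alox5ap was the nearest gene on the other side of it. Ptgs2 (ENSMUSG00000032487), the inducible cyclooxygenase, had 20.7 CPM (19.0 to 22.5) in anti-CD40 phagocytes and 17.1 CPM (13.9 to 20.9) in isotype phagocytes, a ratio of 1.21 whose interval (0.974 to 1.52) includes 1. Its direction turned with the gate: the log2 ratio of 0.18 became -0.85 when cells with markers of other types were let in and 0.71 when those with any 2 such markers were left out, and it was -1.36 with antibody tags. Ptges (ENSMUSG00000050737) was close to undetected, with 7 UMIs in anti-CD40 phagocytes and 0 in isotype phagocytes, where a count of 0 allows up to 0.535 CPM.

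Start-site sequences are shown for 4 of the 6 lower genes, to set Hpgd, which has no match, beside the 3 that share a short motif. They are the 250 bases before the annotated start in RefSeq (GRCm38.p6), given 5′ to 3′ on the gene's strand, and 9 of the 10 genes had an entry, all but Alox5ap. Capitals mark GGAAGT, the core recognised by ETS factors, a family that includes the macrophage factor PU.1.
Ltc4s (chr11:50238533-50238782, minus strand): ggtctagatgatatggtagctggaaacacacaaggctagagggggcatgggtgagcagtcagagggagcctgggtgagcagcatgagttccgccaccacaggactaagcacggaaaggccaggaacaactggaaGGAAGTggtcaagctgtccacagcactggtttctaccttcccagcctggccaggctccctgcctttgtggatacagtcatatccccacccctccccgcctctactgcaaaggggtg
Hpgds (chr6:65144731-65144980, minus strand): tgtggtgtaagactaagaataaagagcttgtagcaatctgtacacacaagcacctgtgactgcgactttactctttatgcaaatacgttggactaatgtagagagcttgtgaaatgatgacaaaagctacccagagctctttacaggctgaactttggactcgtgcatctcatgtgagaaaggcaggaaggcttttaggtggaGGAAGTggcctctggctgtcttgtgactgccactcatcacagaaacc
Ptgs1 (chr2:36230176-36230425, plus strand): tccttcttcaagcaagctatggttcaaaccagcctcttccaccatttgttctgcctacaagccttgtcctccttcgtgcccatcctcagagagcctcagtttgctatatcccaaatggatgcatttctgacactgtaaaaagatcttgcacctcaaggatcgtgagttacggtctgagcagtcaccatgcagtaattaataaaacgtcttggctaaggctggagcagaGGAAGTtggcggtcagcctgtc
Hpgd (chr8:56294302-56294551, plus strand): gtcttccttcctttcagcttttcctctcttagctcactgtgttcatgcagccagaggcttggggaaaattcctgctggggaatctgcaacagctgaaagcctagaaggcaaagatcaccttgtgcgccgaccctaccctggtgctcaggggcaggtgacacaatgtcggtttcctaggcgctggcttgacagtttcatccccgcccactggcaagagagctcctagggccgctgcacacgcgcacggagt
The motif lay 116 to 111 bases before the start of Ltc4s, 47 to 42 bases before that of Hpgds and 22 to 17 bases before that of Ptgs1. On either strand, GGAAGT was present in 19.7% of all 32851 RefSeq promoter windows of this length. The interferon-linked GAS motif TTCNNNGAA was present in 1 of the 3 Slco2b1 windows and in 7.02% of all windows, and TGACGT, the core of the cyclic AMP response element, in another Slco2b1 window and in 6.47% of all. None of the 9 genes' windows held the other motifs searched on both strands, namely the interferon-stimulated response element (2.98% of all windows), TGCTGA, the core of the MAF element (16.1%), the TATA box TATAAA (12.4%) and the E-box CACGTG (6.02%). The windows of Alox5, Lta4h, Ptgs2, Ptges and Hpgd held no match to any motif searched, and no 2 matches overlapped. A match describes letters in a window and is neither a bound site nor a cause.

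Levels of the 10 genes in the other cell types showed which of them were highest in phagocytes and which were seen in several types. Free RNA was read from C1qa, C1qb and C1qc, complement genes that phagocytes make: summed, they reached 2.66% to 6.98% of their phagocyte level in the other anti-CD40 types and 0.455% to 3.57% in the other isotype types. Ltc4s, Hpgds and Hpgd were highest in phagocytes in both libraries, although in the anti-CD40 library the Ltc4s interval of endothelial cells (4.32 to 31.04 CPM, from 5 UMIs in 68 cells) included that of phagocytes. Ltc4s had 2.00 CPM in anti-CD40 neutrophils and 11.7 CPM in isotype neutrophils, from 2 anti-CD40 and 5 isotype UMIs, or 10.9% of the anti-CD40 and 5.03% of the isotype phagocyte level. In isotype B cells it had 8.75 CPM, 3.78% of the phagocyte level, beside 2.57% for the C1q genes.

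**Figure D2:**
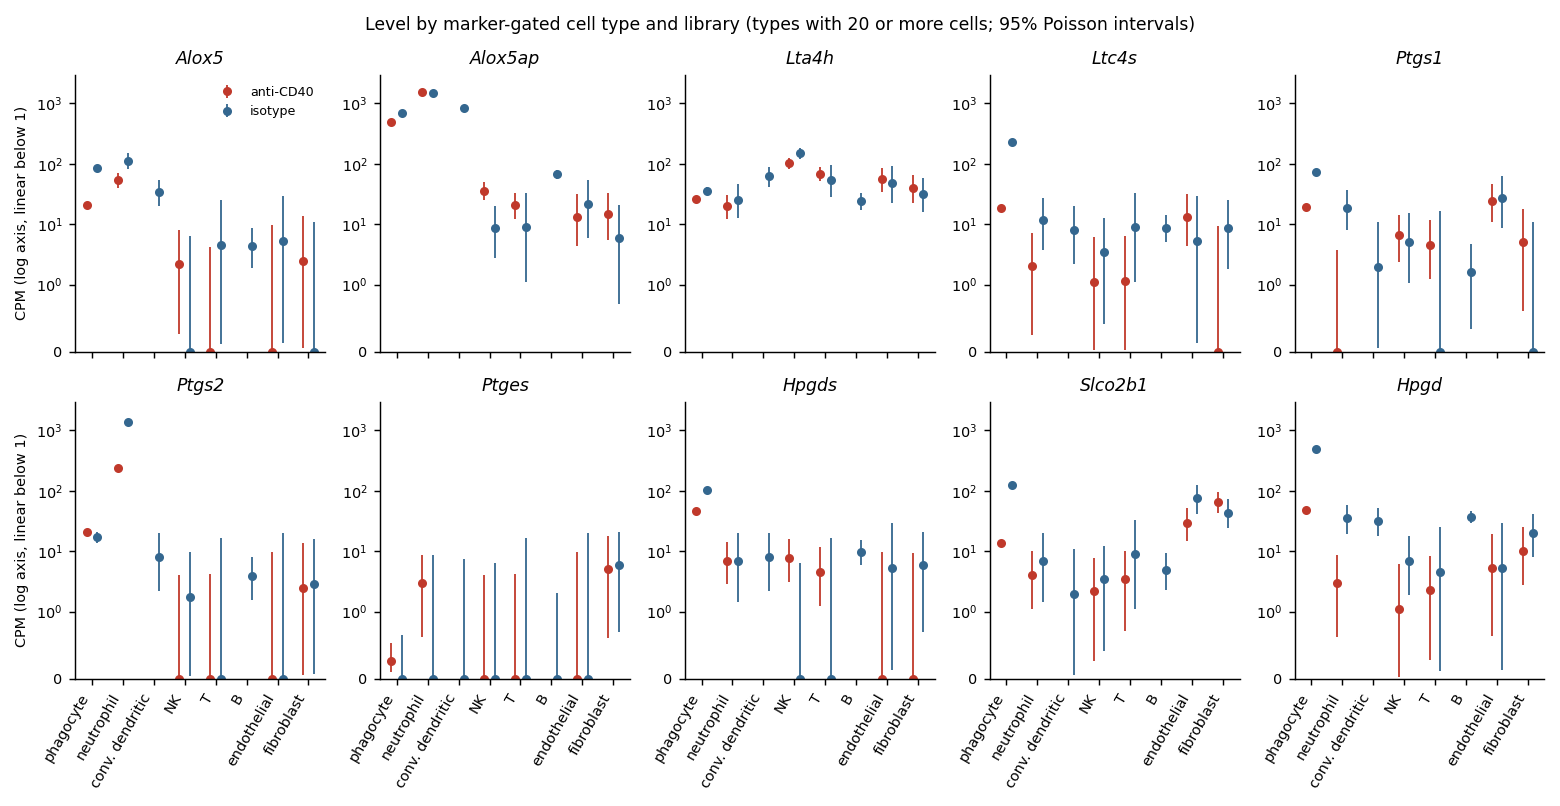
CPM of each of the 10 genes (log axis, linear below 1) in marker-gated cell types with 20 or more cells, anti-CD40 in red to the left and isotype in blue to the right, with exact 95% Poisson intervals. Ltc4s, Hpgd and Slco2b1 lie lower in anti-CD40 than in isotype phagocytes, and Lta4h is present in every type shown. Ptgs2 lies lower in anti-CD40 than in isotype neutrophils. Hpgd does so too, from 3 anti-CD40 and 15 isotype UMIs, and the part of phagocyte RNA in it was not tested.

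Neutrophils, short-lived cells that make leukotriene B4 in bulk, were the highest type for Alox5, Alox5ap and Ptgs2 in both libraries. Alox5ap had 1558 CPM (1482 to 1638) in anti-CD40 neutrophils and 1487 CPM (1373 to 1607) in isotype neutrophils, a ratio of 1.05 (0.955 to 1.15). Alox5 had 53.1 CPM (39.8 to 69.5) in anti-CD40 neutrophils, against 112 CPM (82.5 to 148) in isotype neutrophils, from 53 anti-CD40 and 48 isotype UMIs, 2.11-fold lower (1.40 to 3.17), with a log2 ratio of -0.95 that was -0.64 under TMM scaling. In the isotype library the Alox5 interval of neutrophils overlapped that of phagocytes, and in the anti-CD40 library it did not. The ranking takes all phagocytes together. In the resident subset described below, Alox5 had 39.9 CPM (35.0 to 45.2) in anti-CD40 and 127 CPM (113.5 to 142.5) in isotype cells.

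In neutrophils Ptgs2 had 239.5 CPM (210.1 to 272) in anti-CD40 neutrophils, against 1386 CPM (1277 to 1502) in isotype neutrophils, 5.79-fold lower (4.97 to 6.75). A UMI was found in 30.1% of anti-CD40 and 61.0% of isotype neutrophils, which had median depths of 2921 UMIs (anti-CD40) and 3012 UMIs (isotype), and in 0 of 110 anti-CD40 and 1 of 117 isotype NK cells. Cells with 8 or more UMIs were 1.33% of anti-CD40 neutrophils, against 16.4% with 8 to 15 and 4.11% with 16 or more in isotype neutrophils. Thinned to 1000 UMIs, 57 of 278 anti-CD40 and 63 of 126 isotype neutrophils kept a UMI of it. Over Leiden clusters instead of the marker gate, the log2 ratio of Ptgs2 in neutrophils was -0.64 in place of -2.48. The gated neutrophils of the libraries lay in different clusters: 1 cluster held 234 of 302 anti-CD40 and 1 of 146 isotype neutrophils, and another 5 anti-CD40 and 132 isotype neutrophils.

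Of the 10 genes, 4 had 30 or more UMIs in neutrophils, and 2 of them, Alox5 and Ptgs2, were more than 2-fold lower in the anti-CD40 library. Among all 4175 genes with as many UMIs there, 14.5% were more than 2-fold lower and 10.5% more than 2-fold higher. Ptgs1 had 0 UMIs in anti-CD40 neutrophils, which allows up to 3.01 CPM, and 8 UMIs (18.6 CPM) in isotype neutrophils. Hpgd had 3.01 CPM from 3 UMIs in anti-CD40 neutrophils and 34.9 CPM from 15 UMIs in isotype neutrophils, a ratio of 0.0860 (0.0160 to 0.304), levels that were 6.25% of the anti-CD40 and 7.21% of the isotype phagocyte level. The C1q genes stood at 6.98% of the phagocyte level in anti-CD40 neutrophils and 3.57% in isotype neutrophils, and the part of phagocyte RNA in the neutrophil ratios was not tested.

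Lta4h was found in every type with 20 or more cells, and NK cells were highest for it, with an interval that overlapped that of T cells in the anti-CD40 library but not that of the next type in the isotype library. It had 102 CPM (82.7 to 125) in anti-CD40 NK cells and 148 CPM (118 to 183) in isotype NK cells, a ratio of 0.692 (0.511 to 0.938). In T cells it had 67.9 CPM (51.7 to 87.6) in the anti-CD40 library and 53.9 CPM (27.9 to 94.2) in the isotype library. From T cells to endothelial cells and fibroblasts, neighbouring intervals overlapped in both libraries. Lta4h lay at 20.0 CPM in anti-CD40 and 25.6 CPM in isotype neutrophils, the lowest type in the anti-CD40 library, and at 24.1 CPM in isotype B cells. Shares of NK cells with a UMI were 49.1% in the anti-CD40 and 50.4% in the isotype library.

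Slco2b1 was present in stromal cells. It had 65.0 CPM (42.5 to 95.2) in anti-CD40 fibroblasts and 43.6 CPM (24.4 to 71.9) in isotype fibroblasts, from 26 anti-CD40 and 15 isotype UMIs, a ratio of 1.49 (0.761 to 3.03). In endothelial cells it had 29.3 CPM (14.6 to 52.4) in the anti-CD40 library and 74.9 CPM (41.0 to 126) in the isotype library, from 11 anti-CD40 and 14 isotype UMIs. Fibroblasts were thus the highest type for Slco2b1 in the anti-CD40 library, and phagocytes in the isotype library. Fibroblast levels were 473% of the phagocyte level in the anti-CD40 library and 34.7% in the isotype library, beside C1q levels of 2.66% in the anti-CD40 and 1.15% in the isotype library.

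Ptgs1 in endothelial cells, which use it to make prostacyclin, had 23.9 CPM (10.95 to 45.5) in the anti-CD40 library and 26.8 CPM (8.69 to 62.4) in the isotype library, from 9 anti-CD40 and 5 isotype UMIs. Its anti-CD40 phagocyte level of 19.0 CPM lay inside that interval, and its isotype phagocyte level of 72.9 CPM lay above it. Alox5ap was at 860 CPM (727 to 1011) in 8 anti-CD40 and 853 CPM (775 to 938) in 28 isotype conventional dendritic cells, which activate T cells. In the same cells Alox5 had 0 UMIs in the anti-CD40 library, which allows up to 17.6 CPM, and 33.8 CPM in the isotype library, from 17 UMIs in 2 cells. Ptges stayed at 17 UMIs in 16 cells of the whole anti-CD40 library and 7 UMIs in 6 cells of the isotype library, with 2 UMIs each in the fibroblasts of either. At this depth its level could not be compared between types or libraries.

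Mast cells, a textbook source of leukotriene C4 and prostaglandin D2, were represented by 1 anti-CD40 cell with a UMI of all 9 mast cell markers, which also met the basophil list and so was among the cells kept apart. Of its 5191 UMIs, 1 was Alox5, 1 Alox5ap, 2 Ptgs1 and 2 Hpgds, and 0 were Ltc4s. In phagocytes the summed mast cell markers stood at 6.55 CPM in the anti-CD40 and 0.535 CPM in the isotype library, with 3 of the 9 markers at 0 in the anti-CD40 and 7 in the isotype library. The basophil and eosinophil lists stood at 0.374 and 0.449 CPM in anti-CD40 and at 0.891 and 2.14 CPM in isotype phagocytes.

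Phagocytes of the heart include long-lived resident macrophages and cells recently derived from blood monocytes. The libraries held cells with the markers of each in different proportions. Subsets were called from marker UMIs alone, so a different mix of cells and a different level of the markers cannot be told apart. Cells with a UMI of any resident marker (Timd4, Lyve1 or Folr2) and none of Ccr2, the receptor that brings monocytes into tissue, were 580 of 2176 anti-CD40 phagocytes (26.7%) and 309 of 691 isotype phagocytes (44.7%). Cells with Ccr2 and no resident marker were 657 anti-CD40 (30.2%) and 85 isotype phagocytes (12.3%). Cells with both a resident marker and Ccr2 were 304 anti-CD40 (14.0%) and 43 isotype phagocytes (6.22%). None of the 3 resident markers was found in 1220 of 2176 anti-CD40 and 329 of 691 isotype phagocytes. A marker is found more readily in a deeper cell, and median depths were 10513.5 UMIs in anti-CD40 and 7088 in isotype phagocytes. Classical monocytes, called from their own markers, were 169 anti-CD40 (7.77%) and 31 isotype phagocytes (4.49%). In bulk sums over phagocytes, a different share of resident cells and less RNA per resident cell cannot be told apart. The 10 genes were therefore read again within each subset.

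Within resident phagocytes 5 of the 9 measured genes, Alox5, Ltc4s, Ptgs1, Slco2b1 and Hpgd, were more than 2-fold lower in the anti-CD40 library. Over all 10119 genes measured in resident phagocytes 8.46% were more than 2-fold lower and 5.66% more than 2-fold higher. Ltc4s had 44.6 CPM (39.5 to 50.3) in anti-CD40 and 449 CPM (422 to 476) in isotype resident cells, 10.1-fold lower (8.79 to 11.5). Hpgd had 85.0 CPM in anti-CD40 and 570 CPM in isotype resident cells, 6.70-fold lower (6.05 to 7.43). Slco2b1 was 5.69-fold lower (4.75 to 6.84), Ptgs1 4.07-fold lower (3.23 to 5.14) and Alox5 3.19-fold lower (2.69 to 3.80). Hpgds, 2.22-fold lower over all phagocytes, was 1.53-fold lower (1.31 to 1.78) here, with 76.2 CPM in anti-CD40 and 117 CPM in isotype resident cells.

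Ltc4s followed the resident markers in both libraries, as did Alox5. Hpgd and Hpgds differed less between cells with and without those markers, above all in the isotype library. In phagocytes with no subset marker, Hpgds had 86.2 CPM (anti-CD40) and 153 CPM (isotype), above its 76.2 and 117 CPM in resident cells. Hpgd had 92.5 CPM (anti-CD40) and 523 CPM (isotype) in them, beside 85.0 and 570 CPM in resident cells. In Ccr2-positive cells without a resident marker, Ltc4s had 5.02 CPM (3.62 to 6.78) in the anti-CD40 library and 14.3 CPM (7.79 to 23.9) in the isotype library. In cells with a Timd4 UMI it had 47.0 CPM in the anti-CD40 library and 566 CPM in the isotype library. With none of the 3 resident markers it had 5.08 CPM in the anti-CD40 library and 21.7 CPM in the isotype library. Alox5 had 42.3 CPM in anti-CD40 and 153.5 CPM in isotype cells with Timd4. In cells with none of the 3 markers Alox5 had 9.36 CPM in the anti-CD40 and 40.6 CPM in the isotype library. Hpgd by contrast had 17.6 CPM (14.8 to 20.6) in anti-CD40 and 279 CPM (247 to 314) in isotype Ccr2-positive cells, 15.9-fold lower (13.0 to 19.5). In classical monocytes Hpgd had 14.7 CPM in the anti-CD40 library and 288 CPM in the isotype library, and a UMI was found in 20 of 169 anti-CD40 and 21 of 31 isotype classical monocytes. Transcripts of Hpgd were therefore lower in the anti-CD40 library in each of the 6 subsets, resident and monocyte alike.

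**Figure D3:**
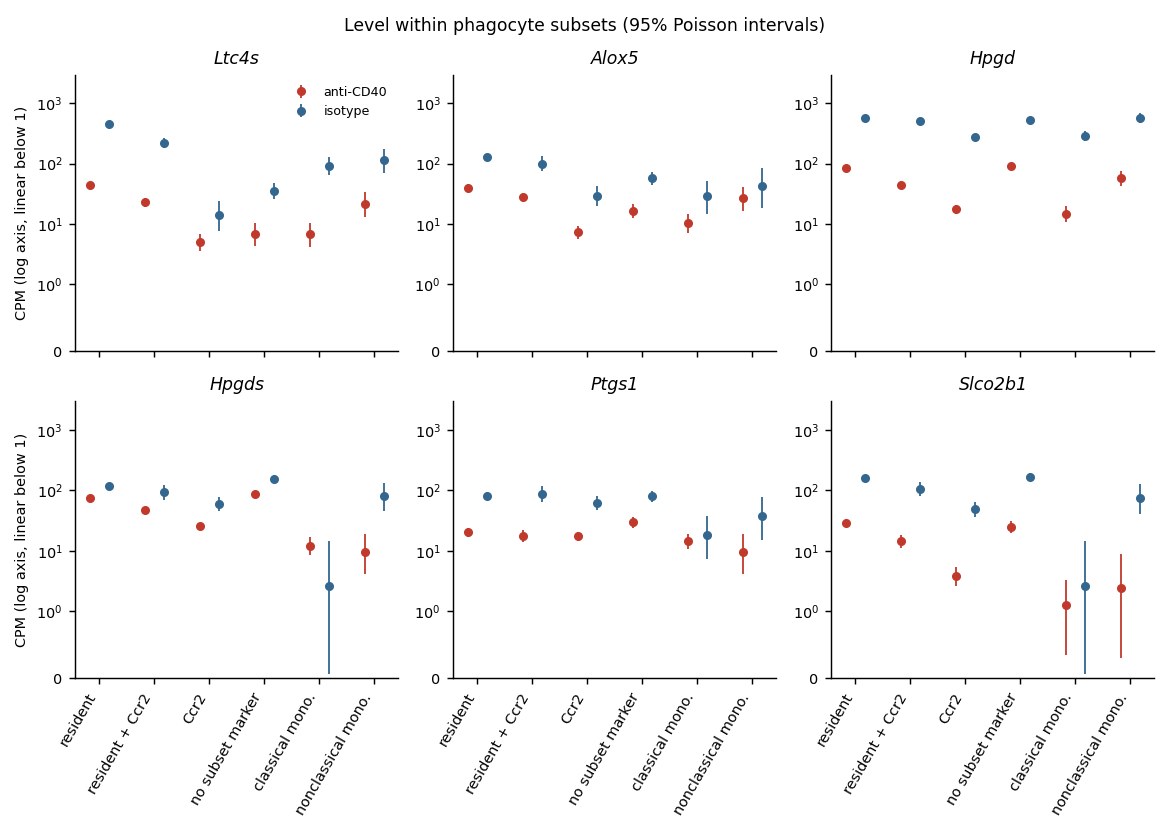
CPM (log axis, linear below 1) of the 6 genes that were more than 2-fold lower in all phagocytes, in 6 phagocyte subsets, anti-CD40 in red to the left and isotype in blue to the right, with exact 95% Poisson intervals. Ltc4s is highest in cells with a resident marker in both libraries, whereas isotype Hpgd lies between 279 and 574 CPM in every subset.

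Single cells can decide a subset value at this depth. The isotype classical monocyte level of Ltc4s, 91.8 CPM, came from 35 UMIs in 1 of 31 cells, while the anti-CD40 level of 6.73 CPM came from 13 of 169 cells. Nonclassical monocytes were 45 anti-CD40 and 17 isotype cells. Slco2b1 was at 1.28 CPM in anti-CD40 and 2.62 CPM in isotype classical monocytes, from 4 anti-CD40 UMIs and 1 isotype UMI. Its transcript was thus close to undetected in that subset in both libraries. Hpgds in the same cells had 12.2 CPM from 38 UMIs in the anti-CD40 library and 2.62 CPM from 1 UMI in the isotype library.

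The Ptgs2 ratio in phagocytes rested on few isotype cells. In phagocytes with no subset marker it had 31.3 CPM (25.4 to 38.0) in the anti-CD40 library and 11.3 CPM (6.01 to 19.3) in the isotype library, a ratio of 2.77 (1.55 to 5.38). In Ccr2-positive cells it had 18.8 CPM (15.9 to 21.9) in the anti-CD40 library and 35.6 CPM (24.8 to 49.6) in the isotype library, a ratio of 0.526 (0.363 to 0.783), with 5 of 85 isotype cells carrying all 35 UMIs and 1 of them 30. An alternative chosen after the values were seen left out the cell with most Ptgs2 UMIs in each library. Without the top Ccr2-positive cells, the Ccr2-positive level was 17.0 CPM in the anti-CD40 library and 5.29 CPM in the isotype library, a ratio of 3.22 (1.35 to 10.1). Over all phagocytes, without the top cells among all phagocytes, the ratio was 1.68 (1.30 to 2.21). In anti-CD40 phagocytes Ptgs2 stood at 20.4, 22.0 and 21.9 CPM in cells with 0, 1 and 2 neutrophil markers, and in isotype phagocytes at 7.29, 17.0 and 55.7 CPM, a split made after the values were seen. With 3 neutrophil markers it stood at 16.9 CPM in 383 anti-CD40 cells and at 0 UMIs in 9 isotype cells, where the 95% Poisson interval reached 46.6 CPM. Neutrophil markers summed to 274 CPM in anti-CD40 phagocytes and 91.3 CPM in isotype phagocytes, with 0 of the 8 markers at 0 in either, and their part in the Ptgs2 level was not tested.

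Alox5, Alox5ap and Ltc4s together make leukotriene C4, and cells with a UMI of all 3 were 7.93% of anti-CD40 resident phagocytes (46 of 580) and 30.1% of isotype resident phagocytes (93 of 309). Among resident cells with Ltc4s, Alox5 was found in 54.7% in each library, and Alox5ap in 93.0% in each. The shares among all resident cells differed more, with Alox5 in 28.8% of anti-CD40 and 47.25% of isotype cells. Alox5ap was found in 83.3% of all anti-CD40 and 86.7% of all isotype resident cells. Hpgd was found in 59.3% of the anti-CD40 and 87.2% of the isotype resident cells with Ltc4s. Slco2b1 was found in 31.4% of the anti-CD40 and 69.2% of the isotype resident cells with Ltc4s. Over all resident cells, Hpgd was found in 41.7% of anti-CD40 and 84.5% of isotype cells. For Slco2b1 those shares were 21.55% of anti-CD40 and 60.5% of isotype cells. Median depths were 9378.5 UMIs in anti-CD40 and 7001 UMIs in isotype resident cells. The library with the lower share of cells with all 3 genes was thus the deeper.

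**Figure D4:**
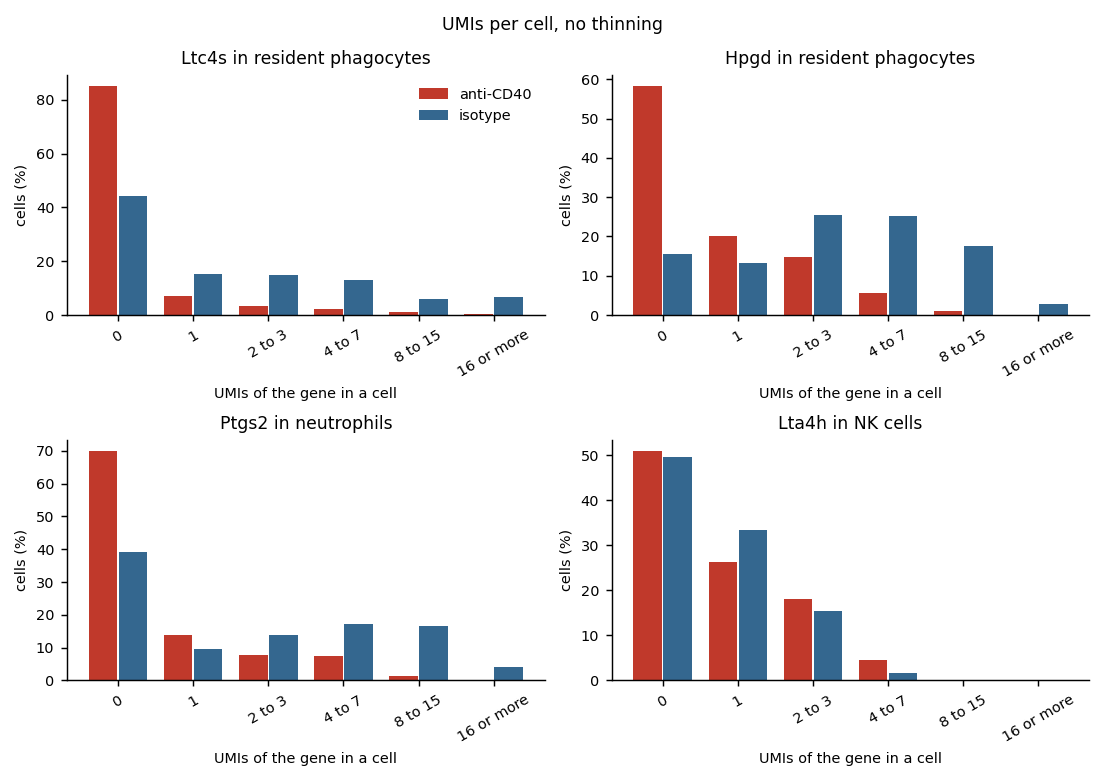
Share of cells by the number of UMIs of a gene in the cell, anti-CD40 in red to the left and isotype in blue to the right, without thinning. Ltc4s was absent from 85.2% of anti-CD40 and 44.3% of isotype resident phagocytes, Hpgd from 58.3% of anti-CD40 and 15.5% of isotype resident phagocytes, and Ptgs2 from 69.9% of anti-CD40 and 39.0% of isotype neutrophils, while Lta4h was absent from 50.9% of anti-CD40 and 49.6% of isotype NK cells.

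Cxcl9, a chemokine gene induced by interferon-gamma, had a UMI in 1652 of 2176 anti-CD40 phagocytes and 6 of 691 isotype phagocytes, and the anti-CD40 cells were split by it after its values were seen. Ltc4s had 13.6 CPM (12.1 to 15.3) in anti-CD40 phagocytes with Cxcl9 and 41.3 CPM (35.7 to 47.6) in those without. Hpgd had 40.4 CPM with Cxcl9 and 85.3 CPM without, and Slco2b1 10.95 CPM with and 27.1 CPM without. Ptgs2 ran the other way, at 22.9 CPM (20.9 to 25.0) with Cxcl9 and 10.4 CPM (7.66 to 13.8) without. The cells without Cxcl9 were shallower, with a median of 7033 UMIs against 11739.5 UMIs in those with it. Isotype cells without Cxcl9 had 235 CPM of Ltc4s and 491 CPM of Hpgd. A cell without a Cxcl9 UMI may carry the transcript unseen, and the cells were not also split by subset. Any link of Cxcl9 to the differences between the libraries was not tested.

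Cells that met several types' markers, left out of the values by cell type and subset above, gave the same direction for the 6 genes. Ltc4s had 26.8 CPM in the anti-CD40 and 219 CPM in the isotype cells of this kind, Hpgd 43.2 CPM in anti-CD40 and 311 CPM in isotype cells, and Slco2b1 19.2 CPM in anti-CD40 and 93.3 CPM in isotype cells. Ptgs1 was 3.31-fold, Alox5 2.42-fold and Hpgds 1.98-fold lower in the anti-CD40 cells of this kind, so Hpgds was not past 2-fold. Ptgs2 had a ratio of 0.458 (0.409 to 0.512) in them, against 1.21 in phagocytes. They came from the same 2 libraries and were mixed differently in each. Phagocyte with neutrophil markers made up 319 of the 718 anti-CD40 cells, and phagocyte with B cell markers 332 of the 584 isotype cells. B cell markers summed to 216 CPM in anti-CD40 phagocytes and 462 CPM in isotype phagocytes, with 0 of the 8 at 0, and their part in the ratios was not tested.

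A wider list of 50 genes of the same pathways held 30 with 30 or more UMIs in phagocytes, of which 6 were more than 2-fold lower, 3 more than 2-fold higher and 21 neither. Their median log2 ratio was -0.14, beside -0.10 for all genes, and 0.03 beside 0.04 under TMM scaling. The shares of all genes past 2-fold were the 11.5% lower and 6.44% higher already given. This list too was drawn up with earlier readings known. Within resident phagocytes 24 of its genes were measured. There Ggt5, Cbr2 and Abcc3 were more than 2-fold lower and Fpr2 more than 2-fold higher, beside 8.46% lower and 5.66% higher of all genes. The other genes named below as past 2-fold, Pla2g4a among them, were past it over all phagocytes but not called in resident ones.

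Of the 7 phospholipases listed, which release arachidonic acid or related lipids, 5 were measured, and Pla2g4a, the cytosolic enzyme that feeds both branches, was the 1 past 2-fold. It had 54.8 CPM (52.1 to 57.7) in anti-CD40 phagocytes, against 27.1 CPM in isotype phagocytes, 2.02-fold higher (1.71 to 2.41). Among 13 leukotriene and lipoxygenase enzymes, 7 were measured and 2 were lower. Ggt5, which converts leukotriene C4 to D4, had 4.23 CPM in anti-CD40 and 15.7 CPM in isotype phagocytes, 3.71-fold lower (2.77 to 4.94). Mgst1, a microsomal glutathione transferase, had 19.5 CPM in anti-CD40 and 39.7 CPM in isotype phagocytes, 2.04-fold lower (1.74 to 2.39), although a UMI was found in 11.1% of anti-CD40 and 7.81% of isotype phagocytes. Without the cell with most Mgst1 UMIs in each library, chosen as above after the values were seen, it was 1.97-fold lower and not past 2-fold.

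Among 9 prostanoid synthases and reductases, 7 were measured and Cbr2, a carbonyl reductase, was the 1 past 2-fold. It had 88.2 CPM (84.7 to 91.8) in anti-CD40 phagocytes, against 397 CPM (381 to 414) in isotype phagocytes, 4.50-fold lower (4.25 to 4.77). Abcc3, an organic anion exporter, was the 1 lower gene of 3 measured transporters, with 9.73 CPM in anti-CD40 and 31.2 CPM in isotype phagocytes, 3.21-fold lower (2.63 to 3.90).

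Of 17 receptors, 8 were measured in phagocytes. Fpr2, which binds formyl peptides and the lipid mediator lipoxin A4, had 36.2 CPM (33.9 to 38.5) in anti-CD40 and 7.49 CPM (5.40 to 10.1) in isotype phagocytes, 4.83-fold higher (3.55 to 6.75). Neutrophils were its highest type, with 283 CPM in the anti-CD40 and 137.5 CPM in the isotype library. Their markers summed to 274 CPM in anti-CD40 and 91.3 CPM in isotype phagocytes. Cysltr2, a receptor for cysteinyl leukotrienes, had 59 UMIs (2.21 CPM) in anti-CD40 and 4 UMIs (0.713 CPM) in isotype phagocytes, 3.10-fold higher (1.15 to 11.7). The part of RNA from other cell types in the Fpr2 and Cysltr2 ratios was not tested. Cysltr2 was highest in T cells in the anti-CD40 library (35.7 CPM) and in NK cells in the isotype library (29.3 CPM). Its partner Cysltr1 had 49.1 CPM in anti-CD40 and 79.1 CPM in isotype phagocytes, a ratio of 0.621 (0.557 to 0.693). The receptors of one leukotriene class thus had ratios on opposite sides of 1. Ltb4r1, the leukotriene B4 receptor, was 2.23-fold lower (1.86 to 2.66) in anti-CD40 phagocytes, although a UMI was found in 10.3% of them and 7.67% of isotype phagocytes. Ptgir, the prostacyclin receptor, was 2.57-fold lower (1.71 to 3.81) in the anti-CD40 library.

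The remaining 4 receptors did not pass 2-fold. Ptger4, a prostaglandin E2 receptor, had 25.9 CPM in anti-CD40 and 46.3 CPM in isotype phagocytes, a ratio of 0.560. Ptger2, another, had 3.22 CPM in anti-CD40 and 3.56 CPM in isotype phagocytes. Cmklr1, a chemerin receptor, had 52.4 CPM in anti-CD40 and 72.5 CPM in isotype phagocytes. The prostaglandin D2 receptors Ptgdr and Ptgdr2 were at 0 UMIs in the phagocytes of both libraries, which allows up to 0.112 CPM in the anti-CD40 and 0.535 CPM in the isotype library. Oxgr1, Gpr17 and Ptgfr were at 0 in both as well.

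**Figure D5:**
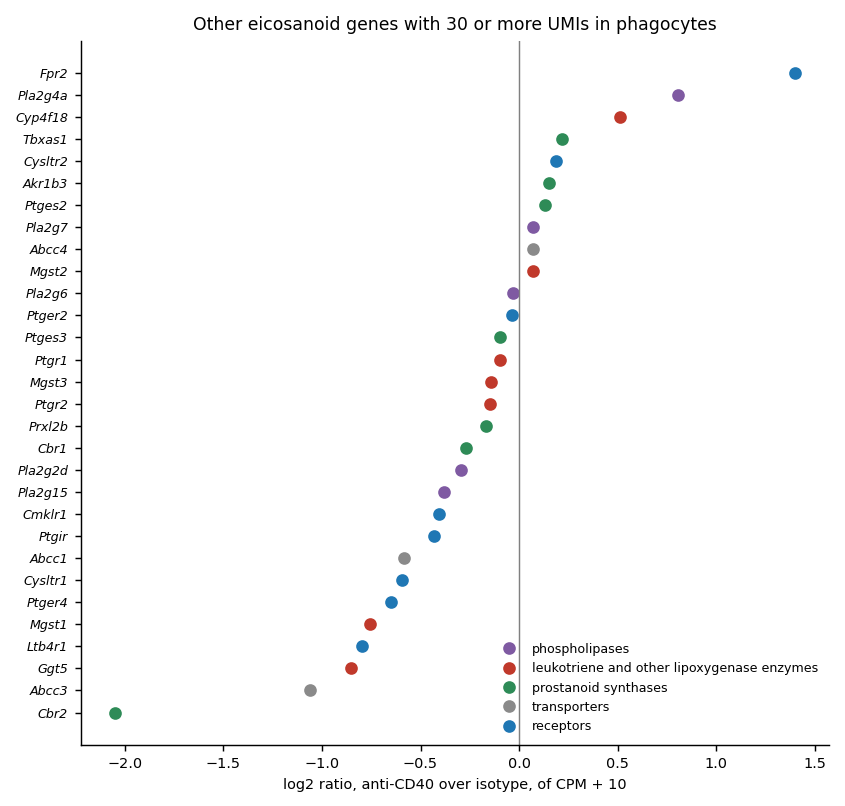
Log2 ratio of CPM plus 10, anti-CD40 over isotype, in phagocytes for the 30 genes of the wider list with 30 or more UMIs, coloured by role. Cbr2 at -2.05 and Fpr2 at 1.40 are the ends of the list.

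Likeness of pattern was read as the Pearson correlation of log2(CPM + 10) over 14 cell type and library combinations among 12150 genes with 100 or more UMIs, as a description. The combinations share libraries and depth and are not independent. Retnla, a marker of alternatively activated macrophages in mice, was closest to Ltc4s (0.97), followed by Gm13479 and Fcrls (0.95 each). Fcrls, an Fc receptor-like gene of tissue macrophages, was also closest to Hpgd (0.94), with Abcc3 and Igsf9 next (0.91 each). Oplah (0.96), Gas6 (0.95) and Ocrl (0.94) were closest to Slco2b1, and Stab1 (0.91), Osbpl11 (0.88) and Mef2a (0.87) to Ptgs1.

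Ptgs2 was closest to Sirpb1b, Gm5150 and Nlrp3 (0.99 each), the last an inflammasome sensor. Alox5 was closest to Cd300a, Wfdc18 and Skint3 (0.97 each), and Alox5ap to I830077J02Rik (0.98), Cd300a and Ebi3 (0.97 each). Hpgds was closest to Ticam2 (0.95), Fcna and Dppa3 (0.94 each). Lta4h was closest to Ppm1j and Camk2g (0.90 each) and Vopp1 (0.88).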

How the data were processed

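Raw UMI counts of genes and antibody tags in each barcode were deposited by the authors, made by Cell Ranger 6.0.1 per the file headers. The submitters' processing notes list Cell Ranger 3, Seurat 3, mm10 and GRCh38 without roles. How barcodes were called as cells is not given in the sources used here. Cells with 200 or more genes and under 10% mitochondrial UMIs were kept, 60.4% of 7087 anti-CD40 and 52.1% of 4908 isotype barcodes, with 47485251 anti-CD40 and 22687435 isotype gene UMIs.

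Cell types were gated from 16 marker lists. The cut was set on the marker counts. No doublet caller was run, and cells meeting several lists were kept apart. UMIs were summed per type and library, giving CPM with exact Poisson intervals, shares with Clopper-Pearson intervals and ratios with exact conditional binomial intervals, at 95% (scipy 1.17.1, numpy 2.4.6). A ratio needed 30 UMIs over both libraries, and log2 ratios used a prior of 10 CPM. Calls past a fold used the CPM ratio without the prior. A count of 0 is given with the limit set by 3 counts. The code was tested on simulated data.

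The 10 genes, the 50-gene list and the markers were chosen with earlier results of these data known. Named genes were the 10, genes of the list over 2-fold in phagocytes, its receptors with 30 or more UMIs, and the 3 closest genes by likeness. Alternatives covered scaling, cell filters, gates, Leiden clusters (scanpy 1.11.5, leidenalg 0.10.2), antibody tags, cell weighting, thinning, prior, fold and minimum UMIs. With 1 library a group, no replicate could be left out and no p-value was computed.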

Additional observations from a re-analysis of the deposited data

Results flagged for a closer look

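Alox5ap had ratios on opposite sides of 1 in 2 cell types. Its ratio of anti-CD40 to isotype was 0.688 (0.664 to 0.713) in phagocytes and 4.18 (1.62 to 13.7) in NK cells, where it rested on 33 anti-CD40 and 5 isotype UMIs. The anti-CD40 UMIs lay in 18 of 110 NK cells, with up to 6 in 1 cell, and the level of 35.9 CPM was 7.42% of the anti-CD40 phagocyte level, beside 2.73% for the C1q genes. In isotype NK cells the level was 8.61 CPM, and the C1q genes stood at 1.47% of the phagocyte level. The difference between the ratios was not tested, and neither was the part of phagocyte RNA in it.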

How the results depend on the processing

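Over 12 alternatives in phagocytes, the log2 ratios of Alox5, Alox5ap, Ltc4s, Ptgs1, Hpgds, Slco2b1 and Hpgd stayed below 0. Ltc4s ranged from -3.58 (prior of 1 CPM) to -2.70 (antibody tags CD11b with F4/80), Hpgd from -3.31 to -2.61, Slco2b1 from -3.10 to -2.01 and Hpgds from -1.13 to -0.72. Lta4h was at 0 under a stricter gate (any 2 markers of another immune type left a cell out). Ptgs2 was 0.18, but 0.71 under the stricter gate, -0.85 under a looser gate and -1.36 with antibody tags. By CPM ratios without the prior, 5 instead of 6 of the 10 genes were lower under TMM and median of ratios scaling, with Hpgds lost. By the same measure 1 gene, Ptgs2, was more than 2-fold higher under the stricter gate. In the wider list, 3 were lower with Leiden clusters, and 1 was higher with 500 genes and 5% mitochondrial UMIs, 1 under the stricter gate, 6 under the looser gate and 5 with antibody tags, against 6 lower and 3 higher above. Its median was 0.03 with TMM scaling, -0.01 with median of ratios scaling and with the looser gate, -0.30 with the stricter gate and -0.02 with antibody tags. TMM scaling moved the median of all genes to 0.04. The cause of these changes was not tested. In neutrophils, Ptgs2 ranged from -2.52 to -0.64 over 8 alternatives, with Leiden clusters at -0.64. Without the Ccr2-positive phagocyte with most Ptgs2 UMIs in each library, chosen after the values were seen, the Ptgs2 ratio in that subset was 3.22 in place of 0.526. The F4/80 tag separated phagocytes from B cells poorly in the isotype library, with a median of 1225 per 10000 tag UMIs in B cells and 2090 in phagocytes. The tag gate also required CD11b, with a median of 10.5 in isotype B cells and 237 in isotype phagocytes. Of the cells it took, 1253 of 1890 anti-CD40 and 336 of 767 isotype cells were marker-gated phagocytes. No paired analysis was possible because each group is 1 library. Depth limits Ptges, the monocyte subsets and every type under 50 cells.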

Other observations

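Barcodes that failed the filters on genes and mitochondrial UMIs were 2809 in the anti-CD40 and 2350 in the isotype library. In them Ltc4s had 12.3 CPM in the anti-CD40 and 130 CPM in the isotype library, Hpgd 24.3 CPM in the anti-CD40 and 167 CPM in the isotype library, and Hpgds 65.9 CPM in the anti-CD40 and 104 CPM in the isotype library. In neutrophils, Mgst1 of the wider list had 590 CPM (544 to 640) in the anti-CD40 and 217 CPM (175 to 265) in the isotype library, while in phagocytes its level was 19.5 CPM in the anti-CD40 and 39.7 CPM in the isotype library. Fpr2 was higher in both, with 283 CPM in anti-CD40 and 137 CPM in isotype neutrophils. Whether the Mgst1 ratios differ between the cell types was not tested.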
